A study of Homo sapiens with 4 samples.

Results

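The DNAJ genes encode J-domain cochaperones of the HSP70 chaperones. They were taken as every gene whose symbol is DNAJA, DNAJB or DNAJC followed by a number and at most 1 letter, which gave 45 of the 60719 genes listed: 4 of class A, 13 of class B and 28 of class C. Their transcripts were followed in RNA recovered together with a V5-tagged form of KIF5A, a kinesin-1 heavy chain that moves cargo along microtubules in neurons, and the comparison asks how that RNA differs between the mutant and the normal motor. SKNAS cells, an established human neuroblastoma line, had been transfected the day before with a V5-d27 KIF5A construct (d27, 2 precipitates) or a V5-WT KIF5A construct (WT, 2 precipitates). All 4 libraries therefore carry an overexpressed, tagged KIF5A beside the cells' own. Neither the promoter of the constructs nor the culture each precipitate came from is given in the sources used here, so a p-value here reflects no more than how far these libraries spread, possibly for technical reasons. No input library is used here, so a transcript that was more abundant in the cells and one that was more often bound to KIF5A cannot be told apart.

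A J domain is a short helical fold with a conserved histidine, proline and aspartate motif that makes HSP70 hydrolyse ATP and clamp onto its client. Class A proteins add a glycine- and phenylalanine-rich stretch and a zinc-binding region, class B proteins have the glycine- and phenylalanine-rich stretch without the zinc-binding region, and class C proteins share little with the others beyond the J domain. In neurons the family is known for keeping aggregation-prone proteins soluble, for uncoating clathrin vesicles and for folding proteins at the synapse, and several members are mutated in inherited diseases of nerve or muscle.

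The libraries held 18335151 and 10483082 gene counts for d27 replicates 1 and 2, and 8142869 and 10811134 for WT replicates 1 and 2. KIF5A took 10.8% and 11.2% of gene counts in the d27 libraries and 9.03% and 14.8% in the WT libraries, and did not pass the test (log2 fold change -0.20 ± 0.49 SE, edgeR adjusted p = 0.821). Since construct and endogenous reads add up, this does not check the labels. WT replicate 2 stood apart, with a correlation across genes on the log2 scale of 0.866 and 0.887 with the d27 libraries, against 0.918 and 0.930 for WT replicate 1. The d27 libraries correlated at 0.963 with each other and the WT libraries at 0.928. WT replicate 1 was thus about as close to d27 replicate 2 (0.930) as to WT replicate 2. All 6 mesenchymal neuroblastoma markers had counts in every library (summed level 2814 and 2634 CPM in d27 against 3132 and 3434 CPM in WT), as did 5 of 6 adrenergic ones (726 and 578 against 825 and 807 CPM), with TH at 0 in d27 replicate 1 and WT replicate 2. Of the markers of other cell types, EPCAM and CD3E were at 0 in every library and CDH1 in all but WT replicate 2. The leukocyte marker PTPRC had 101 and 79.8 CPM in d27 against 190 and 162 CPM in WT and passed the test as lower in d27 (-0.96 ± 0.24, edgeR adjusted p = 0.0433). Its part in the results below was not tested.

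Transcripts of the family made up more of the RNA recovered with d27 than of that recovered with WT. They were 0.325% and 0.315% of gene counts in d27 replicates 1 and 2 (exact binomial 95% intervals 0.322% to 0.327% and 0.312% to 0.319%), against 0.209% and 0.178% in WT replicates 1 and 2 (0.206% to 0.212% and 0.175% to 0.180%). The d27 mean was 0.320% ± 0.007 and the WT mean 0.194% ± 0.022 (SD, n = 2 each), and the groups did not overlap. DNAJB1 alone supplied 17.4% and 22.6% of the family's counts in d27 (17.1% to 17.7% and 22.1% to 23.0%) and 4.34% and 5.99% in WT (4.04% to 4.65% and 5.66% to 6.33%). It was the leading member by count in both d27 libraries, whereas DNAJA1 led in both WT libraries. With DNAJB1 set aside, the rest of the family held 0.256% ± 0.017 of gene counts in d27 and 0.184% ± 0.023 in WT (SD, n = 2 each). The binomial intervals cover counting error at most: they treat each read as independent, and the reads carried no molecular identifiers to tell duplicates apart. They leave out the spread between libraries, and within each group the intervals of the 2 libraries do not overlap.

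Of the 45 members, 38 passed the filter on low counts and were tested. Of these, 4 rose in d27 (edgeR's quasi-likelihood test, Benjamini-Hochberg adjusted p under 0.05 over all 14909 genes tested), which is 10.5% against 8.00% of all genes tested. None fell, against 3.70% of all genes tested. At an unadjusted p under 0.05, 13 members were higher (34.2%) and 2 lower (5.26%), against 17.0% and 13.6% of all genes tested. DESeq2 called 8 members higher (21.1%) and 1 lower (2.63%), where it called 12.9% and 9.29% of all genes higher and lower. The share called higher at the adjusted threshold in edgeR was thus near that of all genes, and at the unadjusted threshold and in DESeq2 it lay above it. The log2 fold change was above 0 in 30 of the 38 and its median was 0.42, against 7453 of the 14909 genes tested, whose median was about 0.00. Both d27 libraries lay above both WT libraries in 22 members and below them in 7, or 57.9% and 18.4%, against 31.4% and 29.8% of all genes tested. The share of entries not counted to any single gene, whatever the reason, also separated the groups. It was 25.9% and 36.8% in d27 against 47.6% and 47.3% in WT, and its part in these counts was not tested.

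How many members were called varied with the library and the setting, and so did the calls over all genes. Without d27 replicate 1, 2 members were higher and 0 lower, where 1.51% and 0.0268% of all genes were. Without d27 replicate 2, 3 were higher and 0 lower (3.08% and 0.577% of all genes). Without WT replicate 1, 9 were higher and 1 lower (15.8% and 11.8%), and without WT replicate 2, 5 and 0 (6.22% and 2.03%). With DESeq2's size factors in edgeR 4 were higher and 1 lower (7.93% and 4.01% of all genes), with library totals alone 4 and 0 (5.96% and 1.91%) and without the robust fit 4 and 0 (7.80% and 3.38%). Without a filter 10 of 43 members (23.3%) were higher and 0 lower (6.09% and 3.14% of all genes), and with at least 50 counts in 2 libraries 8 and 1 (12.2% and 8.48%). Using GC and exon length as an offset gave 4 and 1 (8.65% and 6.65%). With the replicate number as a block 10 were higher and 2 lower (14.3% and 9.65%), and with the block and the offset 7 and 1 (12.1% and 10.9%). Of all calls over the genes tested 68.4% were higher, against 56.6% with the offset.

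**Figure D1:**
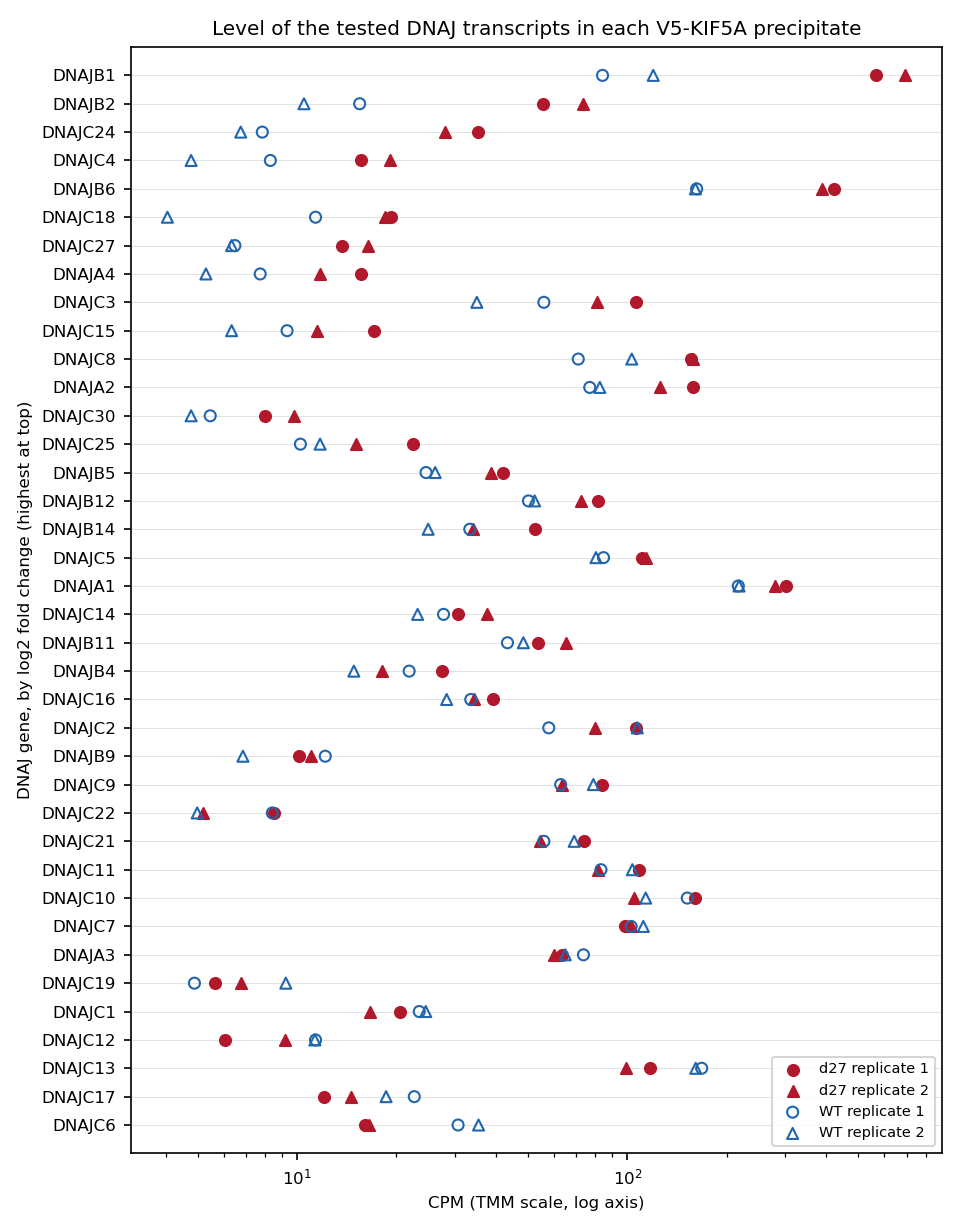
Level of each of the 38 tested DNAJ transcripts in the 4 libraries, in CPM on the TMM scale (log axis), ordered by log2 fold change with the highest at the top. Filled red symbols are d27, open blue symbols WT, with circles for replicate 1 and triangles for replicate 2. The red and blue symbols of DNAJB1, DNAJB2, DNAJC24 and DNAJB6 lie wide apart, and those of DNAJC6 lie apart in the other direction.

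The 4 that rose were 3 class B cochaperones, DNAJB1, DNAJB2 and DNAJB6, and 1 class C protein, DNAJC24. DNAJB1, the heat-inducible partner of cytosolic HSP70 that helps it pull aggregates apart, had 564 and 693 CPM in the d27 libraries against 84.1 and 119.7 CPM in the WT libraries (CPM, scaled by TMM). The lowest d27 library was several times the highest WT library. The means were 628 ± 91 CPM in d27 and 102 ± 25 CPM in WT (SD, n = 2 each), which makes d27 6.16-fold higher (log2 2.62 ± 0.29 SE, edgeR adjusted p = 0.00684). The gene (ENSG00000132002.9) lies on GRCh38 chromosome 19, 14514770 to 14529770, on the minus strand. It shares 211 exon bases, or 5.75% of its exon length, with TECR on the opposite strand. The counting's use of strand is not given, so reads in that stretch may come from either gene.

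DNAJB2 is a cochaperone abundant in neurons that passes HSP70 clients to the proteasome, and its loss causes a hereditary motor neuropathy. It had 55.4 and 73.2 CPM in d27 against 15.5 and 10.5 CPM in WT. With means of 64.3 ± 12.5 CPM in d27 and 12.99 ± 3.52 CPM in WT (SD, n = 2 each), it was 4.95-fold higher (log2 2.31 ± 0.32 SE, edgeR adjusted p = 0.00991). Its smallest count was 101, in WT replicate 2. DNAJB6, a strong suppressor of polyglutamine aggregation whose mutations cause a limb-girdle muscular dystrophy, had 421 and 389 CPM in d27 against 162 and 161 CPM in WT. The replicates of DNAJB6 were close together in both groups, and the difference was 2.51-fold (log2 1.33 ± 0.23 SE, edgeR adjusted p = 0.0176). DNAJB2 (ENSG00000135924.16) lies on GRCh38 chromosome 2, 219279267 to 219286900, and DNAJB6 (ENSG00000105993.15) on chromosome 7, 157335381 to 157417439, both on the plus strand and with no exon shared with another gene in GENCODE 29.

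DNAJC24 works outside the usual folding cycle: it takes part in making diphthamide, the modified histidine of the elongation factor EEF2 that diphtheria toxin attacks. It had 35.3 and 28.0 CPM in d27 against 7.85 and 6.76 CPM in WT. The means of 31.6 ± 5.1 CPM in d27 and 7.30 ± 0.78 CPM in WT (SD, n = 2 each) put d27 4.33-fold above WT (log2 2.11 ± 0.31 SE, edgeR adjusted p = 0.0109). It rested on 69 and 65 counts in the WT libraries. The gene (ENSG00000170946.15) lies on GRCh38 chromosome 11, 31369840 to 31431849, on the plus strand. DNAJB1 and DNAJB2 passed with each library left out in turn. The DNAJB6 call was lost without d27 replicate 1 (log2 1.27, edgeR adjusted p = 0.0984) and without d27 replicate 2 (1.38, 0.0513), and the DNAJC24 call without d27 replicate 1 (1.94, 0.0859).

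Heat shock elements, the sites to which heat shock factors bind, are built from GAA units in alternating orientation, and the promoters of heat-inducible chaperones are known for them. They are shown for 3 of the genes that rose and for DNAJA1, the leading member in WT, which did not pass. RefSeq windows (GRCh38.p14, 250 bases before to 50 after a start site) matched 40 of the 45 members, with 52 windows, and DNAJC24 was not among them. The motifs searched were the pairs GAANNTTC and TTCNNGAA, each its own reverse complement, so that 1 search covers both strands, and the 3-unit forms that extend each pair by 1 unit and so overlap it. The motifs were chosen after the values were seen. Capitals mark the matches, and each sequence runs 5′ to 3′ on the gene's strand.
DNAJB1 chr19:14518348-14518647, minus strand: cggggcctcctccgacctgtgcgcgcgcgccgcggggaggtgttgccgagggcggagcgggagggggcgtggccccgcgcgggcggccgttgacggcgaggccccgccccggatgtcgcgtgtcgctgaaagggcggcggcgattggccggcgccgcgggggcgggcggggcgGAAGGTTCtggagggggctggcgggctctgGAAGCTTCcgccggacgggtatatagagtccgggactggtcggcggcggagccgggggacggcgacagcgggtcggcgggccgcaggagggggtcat
DNAJB2 chr2:219279116-219279415, plus strand: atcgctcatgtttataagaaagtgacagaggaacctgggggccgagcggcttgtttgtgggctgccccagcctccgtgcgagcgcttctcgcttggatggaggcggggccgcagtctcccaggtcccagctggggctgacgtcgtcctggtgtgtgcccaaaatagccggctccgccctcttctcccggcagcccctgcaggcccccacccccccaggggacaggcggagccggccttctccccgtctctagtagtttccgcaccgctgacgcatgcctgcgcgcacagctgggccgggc
DNAJB6 chr7:157336754-157337053, plus strand: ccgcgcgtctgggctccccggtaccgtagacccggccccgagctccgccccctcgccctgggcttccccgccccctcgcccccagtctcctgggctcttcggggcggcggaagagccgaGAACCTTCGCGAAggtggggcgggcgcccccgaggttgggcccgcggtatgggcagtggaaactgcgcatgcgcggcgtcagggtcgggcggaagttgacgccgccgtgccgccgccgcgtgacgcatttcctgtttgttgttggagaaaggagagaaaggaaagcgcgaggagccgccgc
DNAJA1 chr9:33025023-33025322, plus strand: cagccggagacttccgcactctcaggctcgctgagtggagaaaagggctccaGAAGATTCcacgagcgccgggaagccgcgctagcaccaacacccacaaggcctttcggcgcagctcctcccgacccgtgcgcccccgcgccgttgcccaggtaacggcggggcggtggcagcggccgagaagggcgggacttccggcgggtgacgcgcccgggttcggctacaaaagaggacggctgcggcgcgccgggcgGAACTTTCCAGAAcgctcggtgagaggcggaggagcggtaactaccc

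The DNAJB1 window is the one of its 3 windows with the most matches and holds 2 pairs, both between positions 174 and 211 of the window. The DNAJB6 window holds a 3-unit run, at positions 120 to 132, and DNAJB2 holds no match. DNAJA1, whose transcript did not pass, also holds a 3-unit run. Over all 35116 windows in the table, 6.77% hold GAANNTTC, 7.74% hold TTCNNGAA and 13.5% hold either. The 3-unit run of DNAJB6 and DNAJA1, which opens with GAA, is in 0.259% of windows. Its reverse complement, the 3-unit run that opens with TTC, is in 0.268% of windows and in 0 of the members' windows. Either pair was found in 9 of the 52 members' windows (17.3%), which belong to 8 members, DNAJA1, DNAJA4, DNAJB1, DNAJB4, DNAJB6, DNAJB7, DNAJC15 and DNAJC6. Of these DNAJB7 was not tested and 2 rose, DNAJB1 and DNAJB6, where 10.5% of all tested members and 8.00% of all genes tested did. Whether a match goes with a rise was not tested. A match describes these letters in these windows and says nothing of whether a factor bound there.

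The remaining class A and cytosolic class B members are general HSP70 cochaperones. DNAJA1, a farnesylated class A protein, had 303 and 280.4 CPM in d27 against 217 and 218 CPM in WT (log2 0.43 ± 0.23 SE, edgeR adjusted p = 0.248). Its groups did not overlap, but the difference did not pass. DNAJA2 had 157 and 126 CPM in d27 against 76.9 and 82.5 CPM in WT and fell just short (log2 0.83 ± 0.24 SE, edgeR adjusted p = 0.0603). DESeq2 did call DNAJA2 higher (adjusted p = 0.0258), as did a filter of at least 50 counts in 2 libraries (0.0484). In edgeR DNAJA2 did not pass with library totals alone (0.0729) or with GC and exon length as an offset (0.52, 0.135). DNAJA4 had 15.6 and 11.7 CPM in d27 against 7.74 and 5.30 CPM in WT (log2 1.07, edgeR adjusted p = 0.108), and passed without WT replicate 1 (1.37, 0.0315). DNAJB4, whose loss causes a myopathy of respiratory muscle, had 27.5 and 18.1 CPM in d27 against 21.8 and 14.9 CPM in WT, and these overlapped. DNAJB5 had 42.1 and 38.8 CPM in d27 against 24.6 and 26.2 CPM in WT and did not pass (edgeR adjusted p = 0.126). Over the 9 members listed as general cytosolic cochaperones, with DNAJC7, 3 rose (33.3%, against 8.00% of all genes tested) and 6 did not pass, with a median log2 fold change of 0.83.

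DNAJC7, a cochaperone with tetratricopeptide repeats that binds both HSP70 and HSP90 and has been linked to ALS, had 98.1 and 102 CPM in d27 against 103 and 112 CPM in WT, and its log2 fold change of -0.10 ± 0.22 (SE) was the only one below 0 among those 9. The difference was less than its SE (edgeR adjusted p = 0.804).

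**Figure D2:**
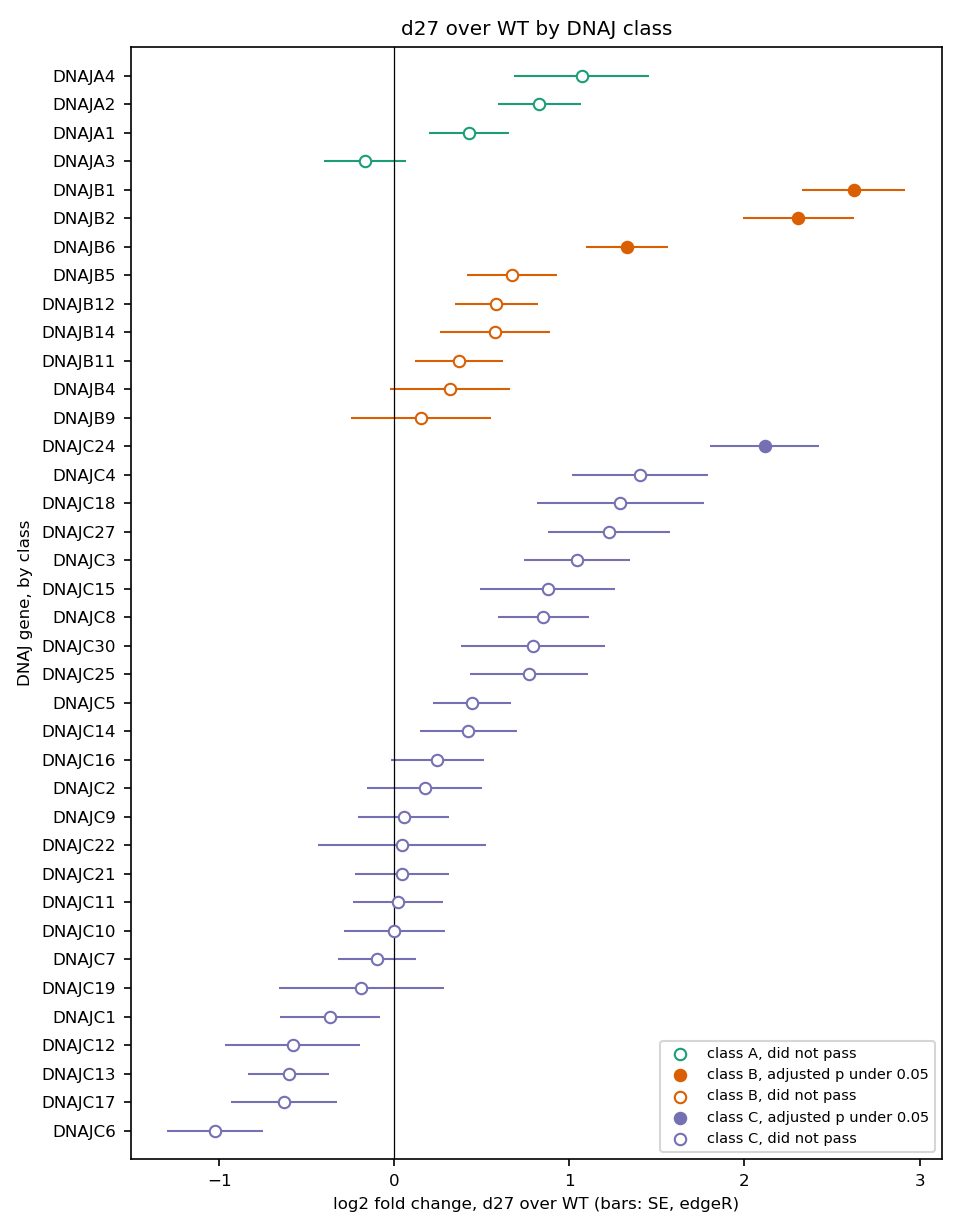
log2 fold change of d27 over WT for the 38 tested members, grouped by class, with bars for the SE from edgeR; filled points have an adjusted p under 0.05. All 9 class B points lie above 0, and class C spans both sides, with DNAJC24 highest and DNAJC6 lowest.

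By class, the 4 tested class A members had a median log2 fold change of 0.63 and none was called in edgeR. At an unadjusted p under 0.05 in edgeR, 2 were higher and 0 lower, against 17.0% and 13.6% of all genes tested. DESeq2 called 1 higher, DNAJA2. Class B had 9 tested members, all with a log2 fold change above 0 and a median of 0.58. The 25 tested class C members had a median of 0.17, with 18 above 0 and 7 below. In edgeR 3 of the 9 class B members (33.3%) and 1 of the 25 class C members rose, against 8.00% of all genes tested. DESeq2 called the same number higher in class B and 4 higher and 1 lower in class C, against 12.9% and 9.29% of all genes. Whether the classes differ was not tested.

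Of the 3 tested members of vesicle traffic none was called in edgeR, 2 were lower and 0 higher at an unadjusted p under 0.05, and the median log2 fold change was -0.60. Over all genes tested 13.6% were lower and 17.0% higher at that unadjusted p. DNAJC6 encodes auxilin, the neuronal J protein that recruits HSP70 to strip clathrin from vesicles, and its loss causes juvenile parkinsonism. It had 16.1 and 16.5 CPM in d27 against 30.7 and 35.4 CPM in WT, the lowest log2 fold change of the family (-1.02 ± 0.27 SE). The groups did not overlap, yet the edgeR adjusted p was 0.0504, just above the threshold. DNAJC6 was called lower by DESeq2 (-1.04, adjusted p = 0.0252) and with DESeq2's size factors in edgeR (0.0482). In edgeR it was also called with at least 50 counts in 2 libraries (0.0325) and with GC and exon length as an offset (0.0288). It did not pass in edgeR with library totals alone (0.0835), without a filter (0.0626) or without the robust fit (0.0511). With 1 library left out, the log2 fold change of DNAJC6 ran from -1.12 to -0.91. DNAJC13, an endosomal J protein that has been linked to Parkinson's disease, had 117 and 99.4 CPM in d27 against 168 and 161 CPM in WT and did not pass (-0.60 ± 0.23 SE, edgeR adjusted p = 0.122). DNAJC5, cysteine string protein, which protects synaptic vesicle proteins and is mutated in adult-onset neuronal ceroid lipofuscinosis, had 110.4 and 114 CPM in d27 against 84.7 and 80.3 CPM in WT (0.44 ± 0.22 SE, edgeR adjusted p = 0.219). Its value lay above 0 where those of DNAJC6 and DNAJC13 lay below. DNAJC5B had no count in any library and DNAJC5G had 1.

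Members listed under the endoplasmic reticulum (ER) lie in its membrane or lumen, and lumenal ones work with HSPA5, the HSP70 of that compartment. Of 10 tested, none passed in edgeR, 9 had a log2 fold change above 0, and the median was 0.47. At an unadjusted p under 0.05 in edgeR, 3 were higher and 0 lower, against 17.0% and 13.6% of all genes tested. DNAJC3, which restrains the stress kinases that block translation and whose loss causes diabetes with neurodegeneration, had 106 and 80.8 CPM in d27 against 55.9 and 35.0 CPM in WT (log2 1.04 ± 0.30 SE, edgeR adjusted p = 0.0623). DESeq2 called it (adjusted p = 0.0154), as did edgeR without a filter (0.00412) and with at least 50 counts in 2 libraries (0.0470). In edgeR it did not pass with library totals alone (0.103) or with GC and exon length as an offset (0.77, 0.0596). With 1 library left out, the log2 fold change of DNAJC3 ran from 0.75 to 1.42. DNAJC18, an ER membrane protein, had 19.3 and 18.4 CPM in d27 against 11.4 and 4.05 CPM in WT (1.29 ± 0.48 SE, edgeR adjusted p = 0.115). Its log2 fold change was 2.22 without WT replicate 1, where it passed (adjusted p = 0.00366), as it did without a filter (0.0136), and 0.73 without WT replicate 2, so the value depended on the WT library used.

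The other ER members ranged from -0.37 for DNAJC1 to 0.77 for DNAJC25. DNAJB9, a lumenal partner of HSPA5 with 10.1 and 11.1 CPM in d27 against 12.2 and 6.86 CPM in WT, overlapped between groups, and DNAJB11, another lumenal partner, had 53.5 and 65.1 CPM in d27 against 43.4 and 48.4 CPM in WT (log2 0.37 ± 0.25 SE, edgeR adjusted p = 0.356). DNAJC10, a disulfide reductase, was nearly equal, with 160.4 and 105 CPM in d27 against 152 and 114 CPM in WT. In DNAJC10, replicate 1 exceeded replicate 2 in both groups.

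Mitochondrial members had 6 tested, none called in edgeR, 1 higher and 0 lower at an unadjusted p under 0.05, and a median log2 fold change of 0.41. Over all genes tested 17.0% were higher at that unadjusted p, near the share of these members, and 13.6% lower. The lowest p among them was that of DNAJC4, with 15.6 and 19.1 CPM in d27 against 8.31 and 4.78 CPM in WT (1.41 ± 0.39 SE, edgeR adjusted p = 0.0545). DESeq2 called it (adjusted p = 0.0256), as did edgeR without a filter (0.00953) and with at least 50 counts in 2 libraries (0.0420). In edgeR it did not pass with library totals alone (0.0844) or with GC and exon length as an offset (1.17, 0.0671). With 1 library left out, the log2 fold change of DNAJC4 ran from 1.07 to 1.86. DNAJC4 shares 297 exon bases, 10.6% of its length, with NUDT22 on the same strand, so reads there cannot be assigned to 1 gene. DNAJC30, in which variants cause Leber's hereditary optic neuropathy, had 8.00 and 9.76 CPM in d27 against 5.46 and 4.78 CPM in WT (0.79 ± 0.41 SE, edgeR adjusted p = 0.233). DNAJC19, part of the inner membrane import machinery and mutated in a cardiomyopathy with ataxia, had 5.66 and 6.79 CPM in d27 against 4.89 and 9.25 CPM in WT. The d27 values of DNAJC19 lay between the WT values. DNAJC11, a protein of the cristae-organising complex, had 108 and 81.3 CPM in d27 against 83.2 and 103.5 CPM in WT, which also overlapped. DNAJC11 shares 27.9% of its exon length with THAP3 and DNAJC30 14.4% with BUD23, both on the opposite strand. DNAJA3, the class A protein of the matrix, and DNAJC15 had log2 fold changes of -0.17 ± 0.23 and 0.88 ± 0.39 (SE) and did not pass.

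Among nuclear and ribosomal members none was called in edgeR, and 3 of 5 overlapped between the constructs, against 5784 of the 14909 genes tested. DNAJC8, a spliceosome component, had 156 and 158 CPM in d27 against 71.0 and 103 CPM in WT (log2 0.85 ± 0.26 SE, edgeR adjusted p = 0.0707). It passed in edgeR without a filter (adjusted p = 0.0219) and with DESeq2 (0.0290). In edgeR it did not pass with at least 50 counts in 2 libraries (0.0583) or with GC and exon length as an offset (0.54, 0.202). With 1 library left out, the log2 fold change of DNAJC8 ran from 0.61 to 1.15. DNAJC9, a histone chaperone, had 83.7 and 63.2 CPM in d27 against 62.8 and 78.9 CPM in WT, and shares 24.0% of its exon length with FAM149B1 on the opposite strand. The ribosome-associated DNAJC2 (0.17 ± 0.33 SE), DNAJC21, which acts in ribosome biogenesis (0.04 ± 0.27 SE), and DNAJC17 (-0.63 ± 0.30 SE) did not pass either. At an unadjusted p under 0.05 in edgeR, 1 of the 5 was higher and 0 lower, against 17.0% and 13.6% of all genes tested. DNAJC17 shares 20.4% of its exon length with GCHFR on the opposite strand.

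The remaining class C members have varied roles. DNAJC27, a Rab-like GTPase fused to a J domain, had 13.7 and 16.4 CPM in d27 against 6.49 and 6.34 CPM in WT (log2 1.23 ± 0.35 SE, edgeR adjusted p = 0.0579). It passed in edgeR without a filter (adjusted p = 0.0387) and with at least 50 counts in 2 libraries (0.0488). It did not pass with DESeq2 (0.0508), or in edgeR with GC and exon length as an offset (1.02, 0.0797). With 1 library left out, the log2 fold change of DNAJC27 ran from 1.10 to 1.35. DNAJC12, a cochaperone of the aromatic amino acid hydroxylases in which mutations raise phenylalanine, had 6.04 and 9.20 CPM in d27 against 11.4 and 11.3 CPM in WT (-0.58 ± 0.38 SE, edgeR adjusted p = 0.343). The groups of DNAJC27 and of DNAJC12 did not overlap, in opposite directions. DNAJC14 and DNAJC22 had log2 fold changes of 0.42 and 0.04 and did not pass.

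**Figure D3:**
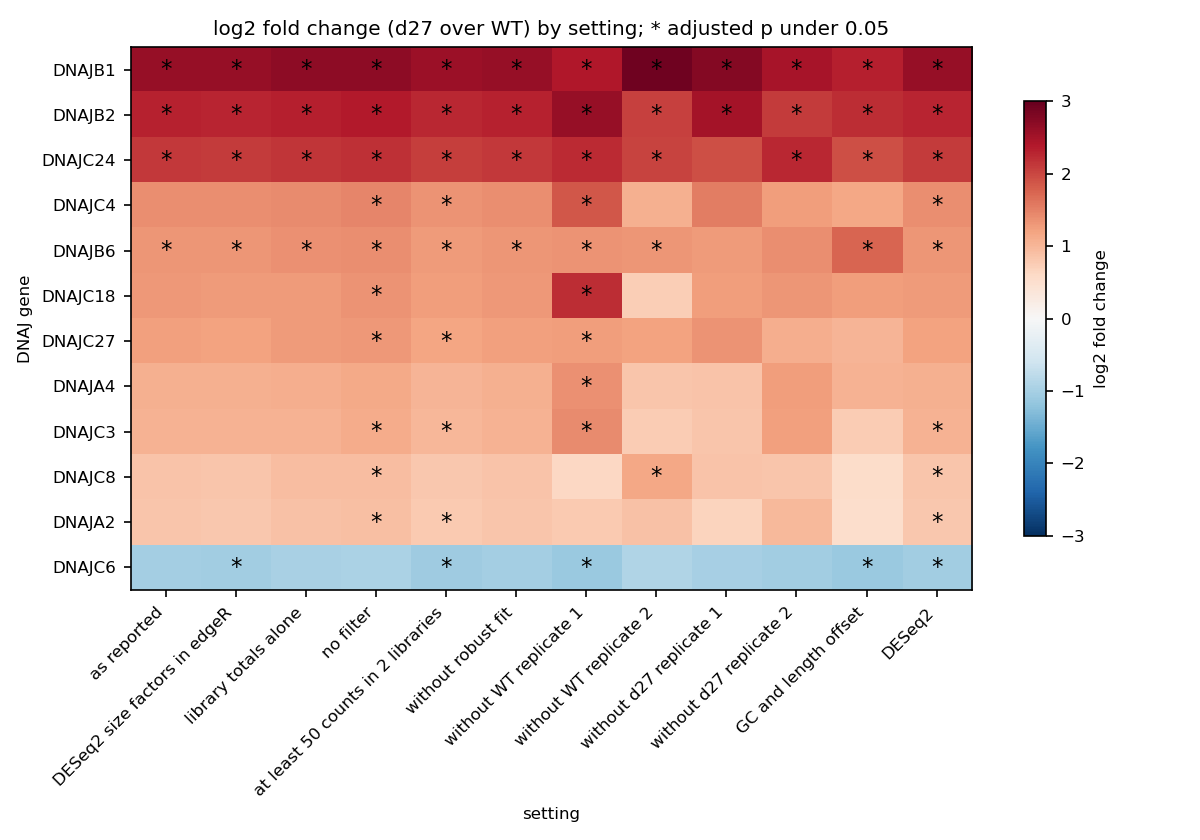
log2 fold change of d27 over WT (colour) for the 12 members with an adjusted p under 0.05 (stars) as reported or in any of the 11 other settings drawn. DNAJB1 and DNAJB2 have a star in each column, and the 8 members without a star in the first column gain one in 1 to 5 others.

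Levels of different members can be compared only per length. Per kilobase of exon (the union of exons in GENCODE 29), DNAJB1 had the highest mean level over the 4 libraries, 99.4 CPM per kilobase, followed by DNAJA1 with 93.2, DNAJC8 with 42.3, DNAJA2 with 21.8, DNAJB6 with 18.9, DNAJC11 with 18.5, DNAJC5 with 18.4 and DNAJC9 with 18.2. DNAJB1 was highest in both d27 libraries, with 154 and 189 CPM per kilobase, against 22.9 and 32.6 in WT. DNAJA1 had 111 and 103 CPM per kilobase in d27 and 79.4 and 79.8 in WT, where it was highest, and in both WT libraries DNAJC8 also lay above DNAJB1. The union of exons of DNAJB6 is 14981 bases long, against 2527 for its longest coding transcript. With the longest coding transcript as the length, an alternative chosen after seeing the data, DNAJB6 had 112 CPM per kilobase and ranked second, DNAJC7 moved up from rank 13 to rank 5 (51.3 CPM per kilobase) and DNAJC5 moved down from rank 7 to rank 12, so the 8 leading members depend on the length used. The last 4 of the 8, between 18.2 and 18.9 CPM per kilobase of exon, cannot be put in order.

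The 7 members that did not pass the filter had few or no reads in any group. DNAJB3 and DNAJC5B were at 0 in every library, which allows up to 0.163 and 0.279 CPM in d27 and 0.341 and 0.312 CPM in WT (3 counts per library). DNAJC5G had 1 count in WT replicate 1, and the testis-enriched DNAJB8 had 3, all in d27 replicate 2. DNAJB13, a protein of motile cilia, had 2 and 2 counts in d27 against 5 and 0 in WT. DNAJB7 had 1 and 5 counts in d27 against 1 and 0 in WT, and DNAJC28 had 3 and 7 counts in d27 against 4 and 0 in WT. No difference in these 7 was detectable at this depth.

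Neither base composition nor length ordered the members closely. The GC content of their longest transcripts ran from 33.1% to 59.1% with a median of 44.3%, against a median of 48.2% over all genes tested, and that of the 4 that rose ran from 37.0% for DNAJC24 to 59.1% for DNAJB2. Across the 38 members, which share the same libraries, Spearman's rho of log2 fold change with GC was 0.16, and with exon length -0.03. Over the annotated genes tested these were -0.07 and -0.06. With GC and exon length as an offset, the same 4 members rose and DNAJC6 fell. The offset moved the median log2 fold change of the tested members from 0.42 to 0.32, and that of all genes from about 0.00 to -0.08. DNAJA1 moved from 0.43 to 0.07 and DNAJB6 from 1.33 to 1.75. Between all settings tried, the sign differed in 10 of the 38 tested members.

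J proteins act with an HSP70 and an exchange factor that resets it, and calls among the transcripts of those partners went in both directions. Of 16 HSP70 and HSP110 genes, 15 were tested, 1 rose (6.67%, against 8.00% of all genes tested), 2 fell (13.3%, against 3.70%) and 12 did not pass, with a median log2 fold change of -0.13. HSPA6, a strictly heat-induced HSP70, had 10.1 and 18.2 CPM in d27 against 1.14 and 0.935 CPM in WT (log2 3.76 ± 0.52 SE, edgeR adjusted p = 0.00991), from 10 and 9 counts in WT. HSPA2 had 29.1 and 30.03 CPM in d27 against 63.4 and 64.6 CPM in WT and fell (-1.11 ± 0.24 SE, edgeR adjusted p = 0.0303). HSPA5, the ER chaperone that DNAJC3, DNAJB9 and DNAJB11 serve, fell as well, with 333.5 and 457 CPM in d27 against 761 and 886 CPM in WT (-1.06 ± 0.28 SE, edgeR adjusted p = 0.0490). The constitutive cytosolic HSPA8 did not pass (-0.21 ± 0.28 SE). HSPA1A, the inducible cytosolic HSP70, had 44.8 and 65.6 CPM in d27 against 64.1 and 117 CPM in WT, and did not pass (-0.71 ± 0.34 SE, edgeR adjusted p = 0.204). HSPA1A and HSPA1B are near-identical, so reads that fit both could be split or dropped and these values are uncertain. The HSPA6 call was lost without d27 replicate 2 (edgeR adjusted p = 0.0608). The calls of HSPA2 and HSPA5 were lost without either d27 library, and that of HSPA5 also without WT replicate 2 (0.0923). Scaling by library totals without TMM lost both (0.0547 for HSPA2 and 0.0654 for HSPA5), and HSPA5 was also lost without the robust fit (0.0529).

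Of 13 exchange factors and other HSP70 cofactors, 5 rose (38.5%, against 8.00% of all genes tested), none fell (against 3.70%) and 8 did not pass, with a median log2 fold change of 0.60. At an unadjusted p under 0.05 in edgeR, 6 were higher and 1 lower, against 17.0% and 13.6% of all genes tested. The lower one was SIL1, the exchange factor of HSPA5 (14.5 and 13.3 CPM in d27 against 26.4 and 31.0 CPM in WT, edgeR adjusted p = 0.0525). BAG3, which links HSP70 to autophagy, was the highest of the 13, with 506 and 520.4 CPM in d27 against 110.7 and 74.1 CPM in WT (2.47 ± 0.29 SE, edgeR adjusted p = 0.00691). The mitochondrial exchange factors GRPEL1 (79.3 and 93.9 CPM in d27 against 33.0 and 28.1 CPM in WT) and GRPEL2 (91.0 and 60.4 CPM in d27 against 23.6 and 15.1 CPM in WT) were 2.84-fold and 3.93-fold higher (edgeR adjusted p = 0.0153 and 0.0157). BAG4, a silencer of death receptors, rose too, with 104 and 74.9 CPM in d27 against 34.5 and 29.4 CPM in WT (1.48 ± 0.27 SE, edgeR adjusted p = 0.0188). So did BAG5, with 123 and 87.9 CPM in d27 against 53.3 and 44.8 CPM in WT (1.10 ± 0.27 SE, edgeR adjusted p = 0.0377). Without d27 replicate 1 the calls of BAG4, BAG5, GRPEL1 and GRPEL2 were lost, without d27 replicate 2 those of BAG5 and GRPEL1, and without WT replicate 2 or with library totals alone that of BAG5.

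None of the 3 J-domain genes with other names that are described here passed in edgeR, with 0 higher and 1 lower at an unadjusted p under 0.05 and 1 called lower by DESeq2, GAK. Over all genes tested 17.0% were higher and 13.6% lower at that unadjusted p. GAK, the widely expressed relative of auxilin, had 66.8 and 103.7 CPM in d27 against 125 and 223 CPM in WT and did not pass (-1.03 ± 0.35 SE, edgeR adjusted p = 0.0893), so both auxilin genes had values near -1. SEC63 and HSCB had log2 fold changes of 0.34 and 0.14 and did not pass. None of the 3 heat shock factors HSF1, HSF2 and HSF4 passed in edgeR, with 1 higher and 0 lower at an unadjusted p under 0.05, and DESeq2 called none.

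**Figure D4:**
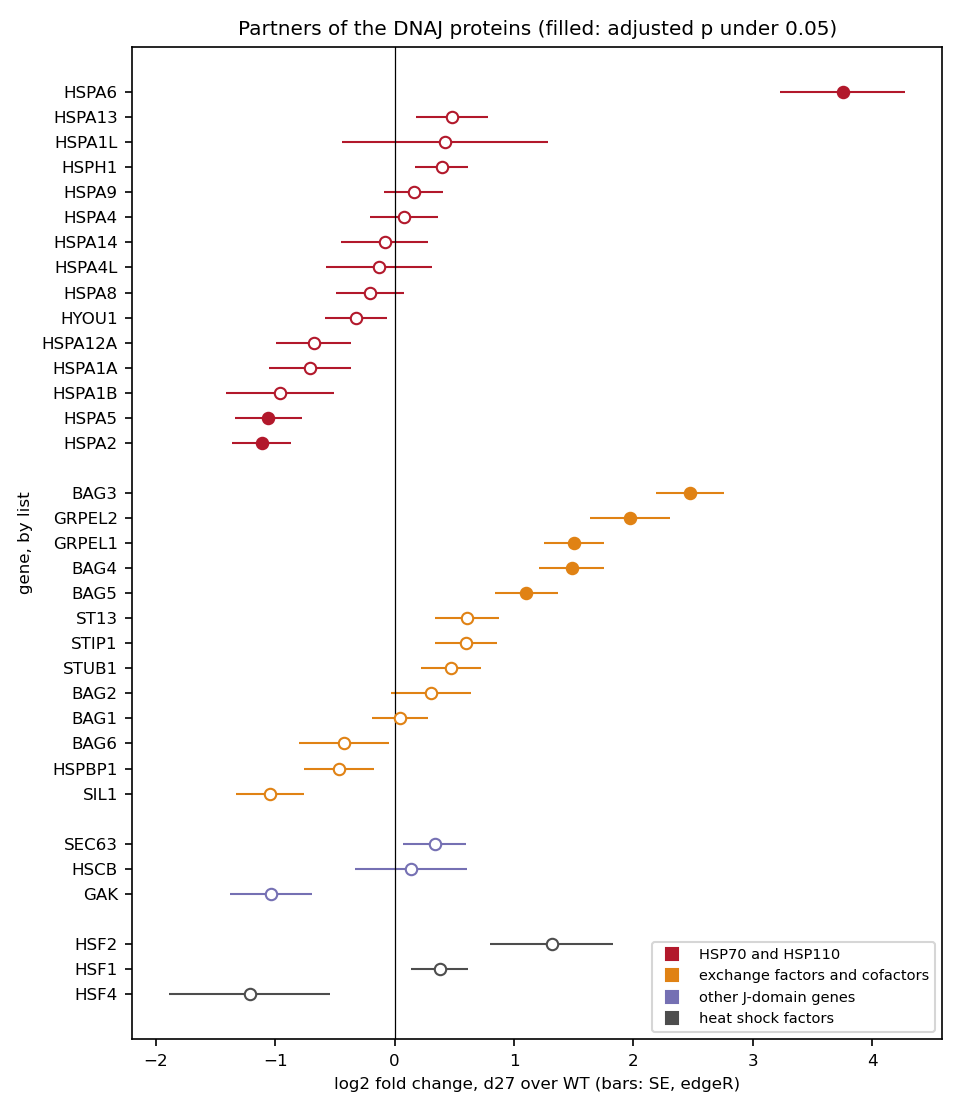
log2 fold change of d27 over WT for the HSP70 and HSP110 genes, their exchange factors and cofactors, the J-domain genes with other names and the heat shock factors, with bars for the SE from edgeR; filled points have an adjusted p under 0.05. HSPA6 and BAG3 lie highest, while the called HSPA5 and HSPA2 lie below 0.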

How the data were processed

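HTSeq, DESeq2 and the GRCh38 build are named in the submitters' processing notes. The sources used here give no aligner, annotation release, strand setting or version. Per the labels' protocols, RNA was depleted of ribosomal RNA and libraries were made with a strand-marking kit. Each library's deposited table holds raw counts by gene. HTSeq's summary entries, 25.9% and 36.8% of all entries for d27 and 47.6% and 47.3% for WT, were left out. Gene IDs were given symbols from a name table, and positions, lengths and GC content from GENCODE 29 (GRCh38).

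The test across all genes was edgeR 4.0.16 (R 4.3.3) with TMM, filterByExpr by group (minimum count 10, minimum total 15), robust glmQLFit and glmQLFTest. It was also run on counts simulated from the means and dispersions of these libraries, and that outcome is not given here. Fold changes are d27 over WT, and the SE was taken from log2 fold change over the root of F. Libraries were left out with the tested genes kept the same; the lone library is then assumed to vary like the other group. GC and exon length offsets, available for 99.4% of tested genes, were splines fitted per library. The members, lists and tests were chosen with earlier results of these data known. Values in every library are given for members called, members called without some library, the 8 leading per length and those mutated in neurological or muscle disease. DNAJB5, DNAJB9, DNAJB11, DNAJC10, GAK, SIL1, HSPA8 and HSPA1A were added after their values were seen. A gene of the lists is not reported here. Alternatives were other scalings and filters, DESeq2 1.42.0, the replicate block, the offset and each library left out. Replicates differed by more than counting noise (chi-square per degree of freedom 36.9 in d27 and 54.8 in WT).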

Additional observations from a re-analysis of the deposited data

How the results depend on the processing

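The 4 members that rose kept their sign in all 13 alternatives; DNAJB1 and DNAJB2 passed in every one, DNAJC24 in 12 and DNAJB6 in 11. Another 9 members passed in at least 1 alternative and 25 in none. Of those 9, DNAJC6 passed in 7 of the 13, and DNAJC3 and DNAJC4 in 6. DNAJA2, DNAJC8, DNAJC18 and DNAJC27 passed in 4, and DNAJA4 and DNAJC13 in 1. With no filter the median log2 fold change of all genes shifted to 0.31, and 10 members were called higher, beside 1888 genes higher and 974 lower. With at least 50 counts in 2 libraries 8 members were higher and 1 lower (959 genes lower). With DESeq2 8 were higher and 1 lower (1197 genes lower). With DESeq2's size factors 1 was lower, and with the GC and length offset 1 was lower (991 genes lower). With library totals alone 285 genes were lower and 1 HSP70 gene was called, and 75.7% of calls were higher, against 68.4% as reported.

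Replicate numbers are shared between groups. Deviations of replicate 1 from its group mean correlated at 0.096 between d27 and WT across 14909 genes. With 2 libraries per group, replicate 2 mirrors replicate 1 and adds no further check. The labels do not say whether a number marks a shared preparation. Whether the numbers pair the samples is undecided, and they were not treated as pairs. With the replicate block 10 members were called higher and 2 lower, beside 2137 genes higher and 1438 lower, and with the replicate block and the GC and length offset 7 and 1, beside 1804 and 1622, with 5 HSP70 genes called.

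Leaving out 1 library gave 2 to 9 members higher and 0 to 1 lower, 225 to 2350 genes higher and 4 to 1758 lower, 0 to 5 HSP70 genes, 1 to 6 exchange factors, 0 to 1 heat shock factors, 0 to 1 other J-domain genes, and 0 to 2 ER, 0 to 1 mitochondrial, 0 to 1 vesicle and 0 to 1 nuclear members. The largest counts of genes came without WT replicate 1 and the smallest without d27 replicate 1. The log2 fold change of KIF5A was 0.39 without WT replicate 2 and below 0 otherwise, and it passed nowhere.

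Members called by place in the cell changed from 0 as below. ER, mitochondrial and nuclear calls were higher and vesicle calls lower. Over all genes, 6.09% were higher and 3.14% lower with no filter, and 12.2% and 8.48% with 50 counts. These shares were 12.9% and 9.29% with DESeq2, and 7.93% and 4.01% with DESeq2's size factors. They were 14.3% and 9.65% with the block, 8.65% and 6.65% with the offset, and 12.1% and 10.9% with both. Whether any place differed from them was not tested. ER members numbered 2 with no filter, the block, and the block with the offset, and 1 with 50 counts or DESeq2. Mitochondrial members numbered 1 in each of those 5. Vesicle members numbered 2 with the block and 1 with DESeq2's size factors, 50 counts, either offset fit or DESeq2. Nuclear members numbered 1 with no filter, the block or DESeq2. Heat shock factors numbered 1 with no filter or the block, and other J-domain genes 1 with no filter, the block or DESeq2. Beyond what the construction of each alternative shows, the cause was not tested. Depth limits DNAJC24, DNAJB2 and HSPA6 in WT and all 7 untested members. It also limits other tested members with fewer WT counts than DNAJB2. Among them in WT replicates 1 and 2 were DNAJC18 (100 and 39 counts), DNAJC4 (73 and 46) and DNAJA4 (68 and 51). DNAJC27 (57 and 61), DNAJC30 (48 and 46) and DNAJC19 (43 and 89) were others.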
